A study of Mus musculus with 12 samples.

Results

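The genes followed here are 7 genes of mast cells and basophils: Hdc, Mitf, Fcer1a, Ms4a2, Cpa3, Il1rl1 and Mcpt8. They were picked by symbol as genes of granules, of the IgE and IL-33 receptors and of mast cell transcription, and make up 7 of the 40481 genes in the deposited expression table. All 7 were found, 1 Ensembl identifier each. Haematopoietic stem cells (HSCs) were sorted from mouse fetal liver at E14.5 or from the bone marrow of mice aged 8 weeks. The donors were wild type (WT) or carried iE/R, the inducible ETV6-RUNX1 fusion, and the cells of both genotypes were cultured for 3 days in HSC expansion medium with 1 µg/mL doxycycline, the inducer. The 4 groups (WT fetal liver, ETV6-RUNX1 fetal liver, WT marrow and ETV6-RUNX1 marrow) had 3 libraries each, made from total RNA. The labels number the replicates but do not say whether they came from separate animals, so p-values measure the spread between these samples, which may be technical.

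Mast cells and basophils are granulocytes that carry IgE on the receptor FcεRI and release stored histamine and proteases when that IgE is crosslinked. FcεRI has a ligand-binding α chain (Fcer1a), a signal-amplifying β chain (Ms4a2) and a shared γ chain (Fcer1g), and signals through the kinases Lyn, Syk and Fyn to the adaptors Lat and Lcp2. Their granules hold histamine, made by histidine decarboxylase (Hdc), on a serglycin matrix together with proteases such as carboxypeptidase A3 (Cpa3), and basophils of the mouse hold the protease Mcpt8. MITF is a basic helix-loop-helix factor of the MiT family that mast cells need, and Il1rl1 encodes ST2, the receptor for IL-33. Cpa3 and Hdc are also transcribed in early blood progenitors and other myeloid cells. ETV6-RUNX1, the fusion of childhood B-cell precursor leukaemia, keeps the DNA-binding Runt domain of RUNX1.

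Because that domain binds the RUNX motif, the 250 bases before each RefSeq transcription start (GRCm38.p6) were searched for it and for 3 other motifs. These were RUNX (TGTGGT), the GATA motif (AGATAA), the E-box bound by MITF (CACGTG or CATGTG) and the ETS motif (GGAAGT), each on both strands. None of these words overlapped another in the windows searched. The genes matched 10 starts. The sequences of 5 genes are shown, chosen after their values were seen as those with the clearest differences in level. They run 5′ to 3′ on the gene's own strand with every match in capitals, a match on the other strand appearing as its reverse complement. Mitf is shown at the first of its 3 starts.
Hdc promoter (chr2:126618679-126618928, minus strand): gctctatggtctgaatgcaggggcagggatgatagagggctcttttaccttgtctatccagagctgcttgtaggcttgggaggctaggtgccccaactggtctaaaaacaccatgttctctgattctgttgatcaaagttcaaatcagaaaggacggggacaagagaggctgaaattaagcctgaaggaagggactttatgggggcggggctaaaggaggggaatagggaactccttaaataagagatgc
Cpa3 promoter (chr3:20242182-20242431, minus strand): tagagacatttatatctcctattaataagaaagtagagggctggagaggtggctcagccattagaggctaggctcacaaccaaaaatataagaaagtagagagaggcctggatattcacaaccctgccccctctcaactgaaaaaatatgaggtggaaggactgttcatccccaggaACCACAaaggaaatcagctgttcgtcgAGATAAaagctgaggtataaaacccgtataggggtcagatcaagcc
Mcpt8 promoter (chr14:56085198-56085447, minus strand): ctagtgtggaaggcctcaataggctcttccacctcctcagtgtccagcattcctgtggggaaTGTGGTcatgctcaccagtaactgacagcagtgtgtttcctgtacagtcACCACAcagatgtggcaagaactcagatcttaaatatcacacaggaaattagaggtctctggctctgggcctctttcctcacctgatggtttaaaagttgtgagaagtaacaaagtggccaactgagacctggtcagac
Fcer1a promoter (chr1:173227230-173227479, minus strand): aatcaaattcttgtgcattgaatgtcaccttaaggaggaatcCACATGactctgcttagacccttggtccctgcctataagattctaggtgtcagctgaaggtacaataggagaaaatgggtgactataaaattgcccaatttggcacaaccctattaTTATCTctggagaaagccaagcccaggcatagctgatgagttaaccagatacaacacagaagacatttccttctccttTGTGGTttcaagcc
Mitf promoter (chr6:97806808-97807057, plus strand): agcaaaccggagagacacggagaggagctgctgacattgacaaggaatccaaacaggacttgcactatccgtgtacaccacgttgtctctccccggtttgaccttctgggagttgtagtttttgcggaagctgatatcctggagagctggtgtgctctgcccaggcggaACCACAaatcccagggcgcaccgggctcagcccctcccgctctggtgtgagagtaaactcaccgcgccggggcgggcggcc

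A RUNX word lay at 5 of the 10 starts, of 5 genes (Cpa3, Mcpt8, Fcer1a, the second start of Il1rl1 and the first of Mitf), against 14% of 32817 RefSeq promoter windows of the same length. Mcpt8 had 2, from -188 to -183 and from -139 to -134 relative to the start. In Cpa3 the RUNX word lay from -73 to -68, with a GATA word from -46 to -41. Fcer1a had a RUNX word from -14 to -9, a GATA word from -92 to -87 and an E-box from -208 to -203. GATA words were found at 5 starts of 4 genes, against 10% of all windows, with 3 of them in Ms4a2. Hdc, and Mitf at its other starts, held none of the 4 motifs. A match is a run of letters, not a measured binding site, and no binding data were used. The Hdc window lies within the longer gene model of the GENCODE annotation.

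**Figure D1:**
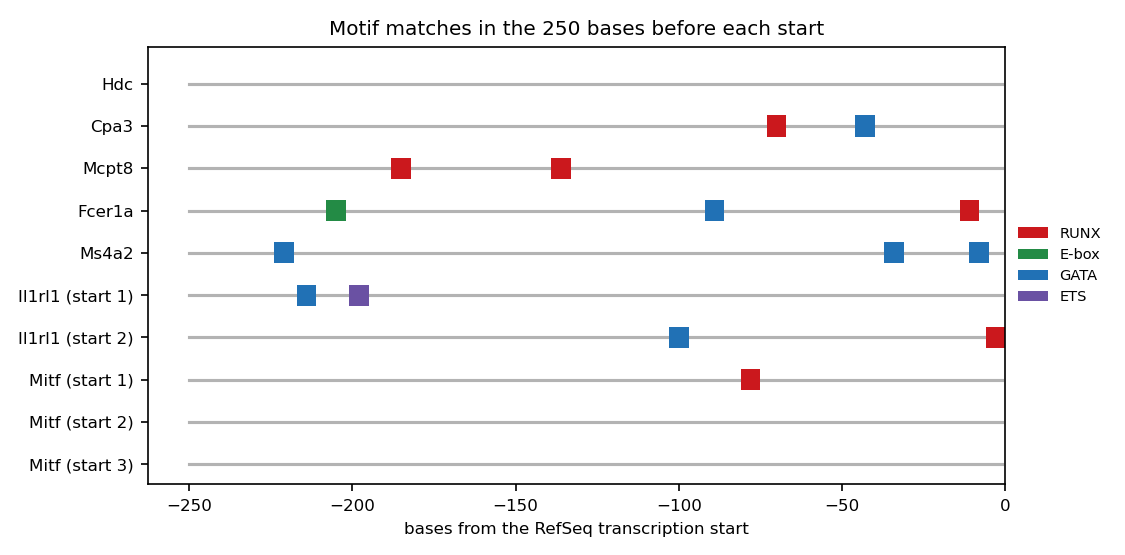
Each grey line is the 250 bases before 1 RefSeq start of a mast cell or basophil gene, and coloured blocks are exact matches to the 4 motifs; the x axis is the distance from the start in bases. RUNX blocks (red) lie at 5 of the 10 starts, and the Hdc line is empty.

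Libraries held 32.3 to 64.5 M reads (M, 1000000), as recovered from the step that 1 read makes in the values. Values are CPM, counts scaled to 1000000 per library, and 3 reads, used as the detection floor, correspond to 0.0465 to 0.0928 CPM in a single library. The CPM of Runx1 and Etv6, whose coding sequences make up the fusion, did not overlap between genotypes in either source: Runx1 was at 110 to 136 CPM in WT and 218 to 244 CPM in ETV6-RUNX1 fetal liver, and at 86.7 to 105 CPM in WT and 143 to 194 CPM in ETV6-RUNX1 marrow. Summed over 9 HSC markers the level was 1416 to 1774 CPM in WT and 2590 to 3156 CPM in ETV6-RUNX1 fetal liver, which did not overlap, and 1335 to 2254 CPM in WT and 1872 to 2297 CPM in ETV6-RUNX1 marrow. The 5 markers of mature mast cells (Tpsb2, Tpsab1, Cma1, Mcpt4 and Mrgprb2) summed to at most 0.273 CPM in any library, with Mcpt4 at 0 in all 12, and 6 eosinophil markers summed to at most 1.98 CPM. Summed Y-linked genes were lower in the WT fetal liver libraries (64.6 to 119 CPM) than in ETV6-RUNX1 fetal liver (198 to 220 CPM), WT marrow (229 to 288 CPM) or ETV6-RUNX1 marrow (268 to 389 CPM), so that sex mix and genotype cannot be told apart in fetal liver. With summed Y-linked genes as a covariate, the fetal liver calls of Hdc (log2 change 3.65, limma adjusted p = 0.00301), Cpa3 (-1.72, 0.0137) and Mitf (1.99, 0.0323) and the marrow call of Fcer1a (-1.83, 0.00205), described below, stayed past the threshold. Since the covariate itself did not overlap between the genotypes in fetal liver, this fit cannot separate sex mix from genotype there.

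Tests used limma on log2(CPM + 1) over the 14271 genes that reached 1 CPM in 3 or more libraries, with Benjamini-Hochberg adjustment and a threshold of 0.05. A fold change on this scale understates the change of low genes. The filter kept 4 of the 7 genes (Hdc, Cpa3, Mitf and Fcer1a, the last through WT marrow) and left out Mcpt8, Ms4a2 and Il1rl1. In fetal liver, 3 of the 4 genes tested (7 in all) passed the test: Hdc and Mitf rose with ETV6-RUNX1 and Cpa3 fell. The background there was 43.1% of genes tested, 24.8% higher and 18.3% lower. In marrow 1 of the 4 tested, Fcer1a, passed, and it fell, against 19.4% of genes tested, 14.4% higher and 4.93% lower. Since Fcer1a entered this test through WT marrow, the group where it is high, its value without the filter is given beside it below. The marrow split moved from 2059 higher and 704 lower to 1432 higher and 1397 lower under median-of-ratios scaling, which moved the median change of all genes from 0.13 to -0.00101 on the log2 scale. In bulk RNA, fewer cells of a type and less RNA per cell cannot be told apart.

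Hdc, on chromosome 2 (GRCm38, 126593667 to 126619299, minus strand), encodes the enzyme that makes histamine. Its level was 0.368, 0.435 and 0.062 CPM in the WT fetal liver libraries and 7.29, 3.36 and 8.37 CPM in the ETV6-RUNX1 fetal liver libraries. In marrow it was 1.66, 0.954 and 0.249 CPM in WT and 1.46, 0.556 and 2.72 CPM in ETV6-RUNX1. The ETV6-RUNX1 fetal liver libraries were the 3 highest of the 12, and the marrow groups overlapped.

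In fetal liver the mean rose from 0.288 ± 0.199 to 6.34 ± 2.64 CPM (SD, n = 3 each), a ratio of 22. The limma log2 change was 2.45 ± 0.36 (SE, adjusted p = 1e-04). In marrow the means were 0.953 ± 0.704 and 1.58 ± 1.09 CPM, and limma gave 0.38 ± 0.36 (adjusted p = 0.484). The genotype effect was larger in fetal liver than in marrow by 2.07 ± 0.51 (limma adjusted p = 0.0211). The background of that test was 9.19% of genes tested. Without filtering, the adjusted p was 0.0935, and it was 0.0546, 0.0521 and 0.0578 without ETV6-RUNX1 fetal liver replicate 1, WT marrow replicate 2 or WT fetal liver replicate 3. An exact permutation test of 3 libraries against 3 cannot go below p = 0.1, the value reached in fetal liver.

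Cpa3, on chromosome 3 (20215620 to 20242181, minus strand), encodes a carboxypeptidase of the mast cell granule. It was at 8.02, 4.84 and 8.54 CPM in WT fetal liver and at 2.96, 4.09 and 3.90 CPM in ETV6-RUNX1 fetal liver. In marrow it was at 6.23, 6.93 and 8.25 CPM in WT and at 6.84, 9.98 and 6.71 CPM in ETV6-RUNX1. The ETV6-RUNX1 fetal liver group was the lowest of the 4 and overlapped none of the others, which overlapped each other.

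In fetal liver the mean was 7.13 ± 2.01 CPM in WT and 3.65 ± 0.605 CPM in ETV6-RUNX1 (SD, n = 3 each), 1.95 times higher in WT. The limma log2 change was -0.78 ± 0.23 (adjusted p = 0.0134). That call was lost without ETV6-RUNX1 fetal liver replicate 1 (adjusted p = 0.0584), WT fetal liver replicate 1 (0.0514) or WT fetal liver replicate 3 (0.0685). In marrow limma gave 0.11 (adjusted p = 0.771), a sign that turned under both other scalings. The difference between the sources, -0.89, had a limma adjusted p of 0.099, and was -1.53 (adjusted p = 0.0333) with Y-linked genes as a covariate. Per kilobase of exon, Cpa3 was the most abundant of the 7 genes in each group, with mean levels of 4.70 in WT fetal liver, 2.41 in ETV6-RUNX1 fetal liver, 4.70 in WT marrow and 5.17 CPM per kb in ETV6-RUNX1 marrow. Mir7007 lies inside Cpa3 on the same strand.

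Mcpt8, on chromosome 14 (56082166 to 56085273, minus strand), encodes the basophil protease. Its level was 0.411, 0.0837 and 0.667 CPM in WT fetal liver and 0.152, 0.0779 and 0.0996 CPM in WT marrow. All 6 ETV6-RUNX1 libraries had 0 reads. Every WT library thus lay above every ETV6-RUNX1 library. WT fetal liver replicate 2 held only 5 reads and WT marrow replicates 2 and 3 only 4 each, just over the floor of 3.

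Over the groups, 67 reads in WT fetal liver stood against 0 in ETV6-RUNX1 fetal liver. Taking 3 reads over the group as the limit of a count of 0, Mcpt8 was at least 17.9-fold lower with ETV6-RUNX1. This limit was 10.3-fold without WT replicate 3, 11.7-fold without ETV6-RUNX1 replicate 1 and 10.6-fold without ETV6-RUNX1 replicate 2. In marrow, 16 reads in WT against 0 gave at least 3.77-fold lower, and at least 2.40-fold without ETV6-RUNX1 replicate 1. These limits, here and for Fcer1a below, cover the counting error of the group at 0 only. They take the reads of the other group as counted and leave out its counting error and the spread between libraries. With all 29278 genes that had reads in the fit, the limma adjusted p was 0.0215 in fetal liver, where 7.76% of genes were called lower, and 0.518 in marrow, where 1.74% were. edgeR on the recovered reads of these genes, an alternative chosen after seeing the data, gave adjusted p = 0.000583 in fetal liver and 0.0475 in marrow, where 10.2% and 4.93% of genes were called lower.

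Fcer1a, on chromosome 1 (173221284 to 173227214, minus strand), encodes the chain of FcεRI that binds IgE. It was at 1.20, 3.25 and 4.41 CPM in WT marrow and at 0.162, 0.185 and 0.248 CPM in ETV6-RUNX1 marrow. In fetal liver it was at 0.259, 0.0335 and 0.372 CPM in WT, and all 3 ETV6-RUNX1 libraries had 0 reads. WT marrow was highest and overlapped no other group, and ETV6-RUNX1 fetal liver was lowest, although WT fetal liver replicate 2 was also at or under 3 reads.

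The mean in marrow was 2.95 ± 1.63 CPM in WT and 0.198 ± 0.0442 CPM in ETV6-RUNX1 (SD, n = 3 each), 14.9 times higher in WT. The limma log2 change was -1.63 ± 0.26 (adjusted p = 0.00128, and 0.00868 with all genes with reads in the fit). Within WT, Fcer1a was 13.3 times higher in marrow than in fetal liver. The limma log2 difference, fetal liver minus marrow, was -1.61 (adjusted p = 0.00107, and 0.00828 with all genes with reads in the fit). The background of that comparison was 11.1% of genes tested, and with Y-linked genes as a covariate the difference was -0.78 (adjusted p = 0.807). In fetal liver, 38 reads in WT against 0 with ETV6-RUNX1 gave at least 10.2-fold lower (3 reads over the group). That limit was 6.01-fold without WT replicate 3, 6.62-fold without ETV6-RUNX1 replicate 1 and 6.01-fold without ETV6-RUNX1 replicate 2. There limma, on the scale that compresses such low levels, gave -0.28 (adjusted p = 0.417). On the recovered reads edgeR gave adjusted p = 0.00461 there and DESeq2 gave 0.000153. The difference between the sources was 1.35 ± 0.37 with limma (adjusted p = 0.0376) but -2.49 with edgeR (adjusted p = 0.401) and -1.84 with DESeq2 (adjusted p = 0.492), so its sign depended on the scale. Without the filter the limma adjusted p was 0.0925. The filtered limma call held in 1 of the 12 fits that left out a library (without WT marrow replicate 1, adjusted p = 0.00185), and the adjusted p was 0.0536 to 0.0971 in the others.

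Ms4a2, on chromosome 19 (11615523 to 11623719, minus strand), encodes the β chain of the same receptor. It was at 0.778, 0.335 and 0.295 CPM in WT fetal liver and at 0.126, 0.198 and 0 CPM in ETV6-RUNX1 fetal liver. In marrow it was at 0.0952, 0.234 and 0.797 CPM in WT and at 0.324, 0 and 0 CPM in ETV6-RUNX1. The fetal liver groups did not overlap and the marrow groups did. No fit gave a call: in fetal liver the adjusted p was 0.21 with limma on all genes with reads and 0.121 with edgeR on the same genes, and in marrow 0.442 and 0.271.

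Il1rl1, on chromosome 1 (40429570 to 40465415, plus strand), encodes the IL-33 receptor. It was at 0.713, 0.251 and 1.04 CPM in WT fetal liver and at 0.294, 0 and 0.030 CPM in ETV6-RUNX1 fetal liver. In marrow it was at 0.305, 0.273 and 0.648 CPM in WT and at 0.0811, 0 and 0.186 CPM in ETV6-RUNX1. The fetal liver groups overlapped at 1 library of each genotype, and the marrow groups did not overlap. Pooled, 115 reads in WT fetal liver stood against 15 with ETV6-RUNX1, and 56 against 9 in marrow. In fetal liver the adjusted p was 0.0466 with limma on all genes with reads and 0.0197 with edgeR on the same genes, and in marrow 0.268 and 0.114. These fits called 7.76% and 10.2% of genes lower in fetal liver, and 1.74% and 4.93% in marrow. That edgeR fit was chosen after seeing the data. The partner chain of Il1rl1, Il1rap, at 7.90 and 11.6 CPM in fetal liver and 13.5 and 11.0 CPM in marrow (WT then ETV6-RUNX1), gave no call.

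Mitf, on chromosome 6 (97807052 to 98021349, plus strand), encodes the transcription factor. It was at 3.09, 3.60 and 2.54 CPM in WT fetal liver and at 11.8, 8.65 and 13.4 CPM in ETV6-RUNX1 fetal liver. In marrow it was at 3.85, 6.56 and 4.41 CPM in WT and at 9.51, 5.10 and 8.51 CPM in ETV6-RUNX1. The fetal liver groups stood apart, and in marrow ETV6-RUNX1 replicate 2 lay among the WT libraries.

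Its mean rose in fetal liver from 3.08 ± 0.527 to 11.3 ± 2.42 CPM (SD, n = 3 each), a ratio of 3.67, with a limma log2 change of 1.58 ± 0.25 (adjusted p = 0.000197). In marrow the means were 4.94 ± 1.43 and 7.71 ± 2.31 CPM, and limma gave 0.54 ± 0.25 (adjusted p = 0.142). The difference between the sources, 1.04 ± 0.35, had a limma adjusted p of 0.0786, and 0.048 with median-of-ratios scaling, 0.0194 with DESeq2 and 0.0447 without WT marrow replicate 1. A processed pseudogene, Gm15531, overlaps Mitf on the opposite strand, and the strand setting of the counting is not given in the sources used here.

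**Figure D2:**
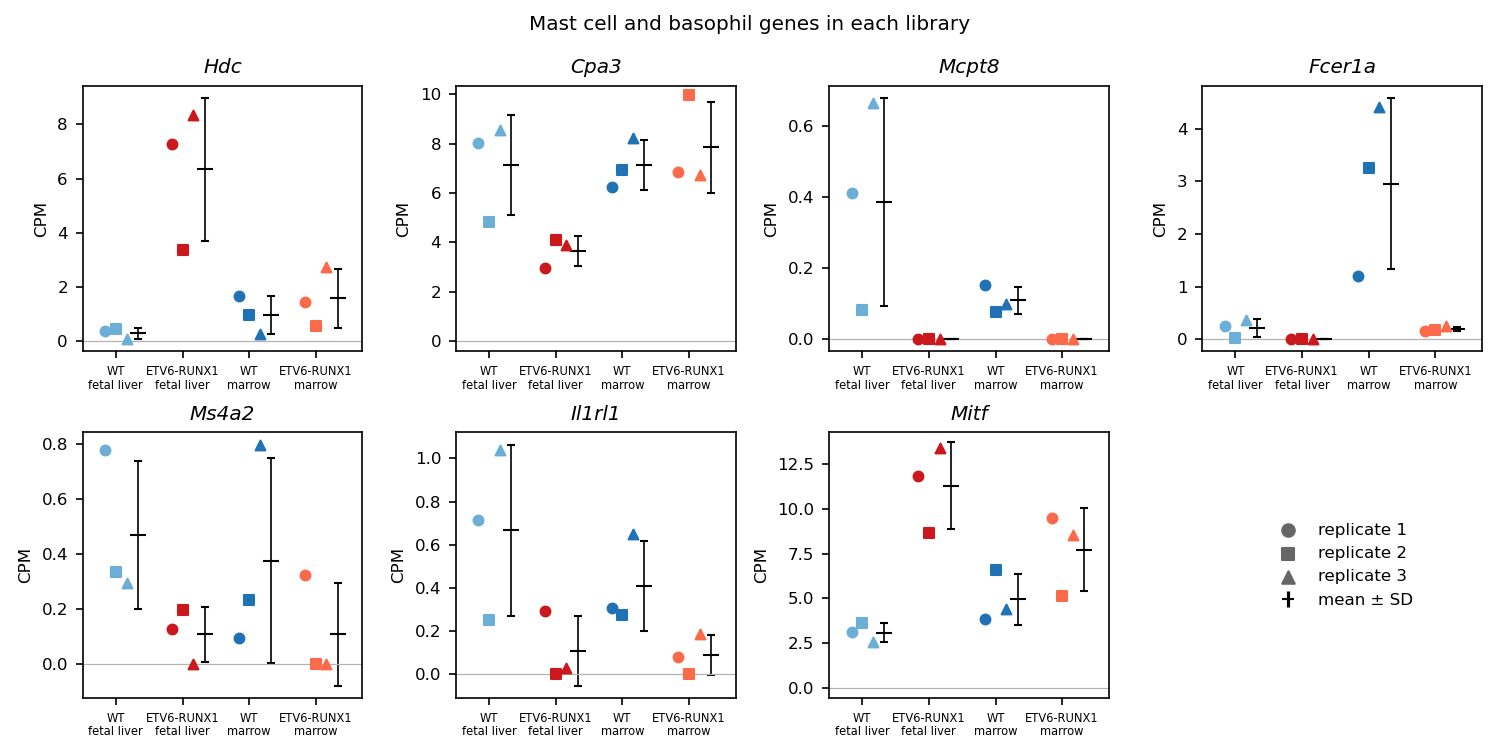
CPM of each gene (y axis, linear and starting near 0, with a different range per gene) in the 12 libraries, by group; marker shapes are replicates 1 to 3 and black bars are the mean ± SD of 3 libraries. Hdc and Mitf are highest in ETV6-RUNX1 fetal liver, Fcer1a in WT marrow, and Mcpt8 is at 0 in all 6 ETV6-RUNX1 libraries.

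**Figure D3:**
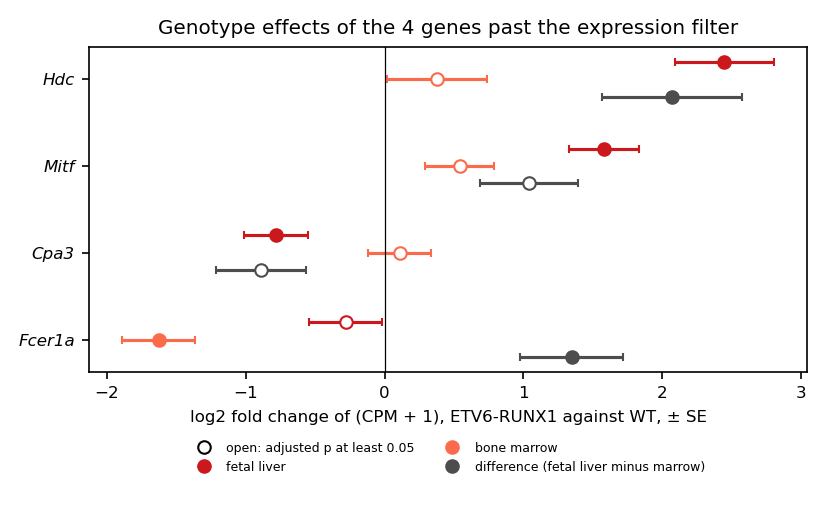
The limma log2 fold change of (CPM + 1), ETV6-RUNX1 against WT, with its SE, for the 4 genes that passed the expression filter, in fetal liver (red), in marrow (orange) and as the difference between the sources (grey); filled points have an adjusted p under 0.05. Hdc and Mitf lie right of 0 in fetal liver and Cpa3 left of it, while Fcer1a lies farthest left in marrow.

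Between the ETV6-RUNX1 groups, 2 of the 7 genes passed the test, against 28.6% of genes tested. Mcpt8, Ms4a2 and Il1rl1 were under the filter and not tested. Hdc was 4.01 times higher in fetal liver than in marrow (limma log2 difference 1.52 ± 0.36, adjusted p = 0.00591), and Cpa3 was 2.15 times higher in marrow (log2 difference, fetal liver minus marrow, -0.92 ± 0.23, adjusted p = 0.00876). Mitf, at 11.3 and 7.71 CPM, overlapped between them (limma adjusted p = 0.138, and 0.0497 with DESeq2). Fcer1a had 0 reads in ETV6-RUNX1 fetal liver against 20 in ETV6-RUNX1 marrow, at least 8.96-fold lower (3 reads over the group, and at least 5.84-fold and 5.31-fold lower without fetal liver replicate 1 or 2). Its adjusted p was 0.494 with limma, 0.0174 with edgeR and 0.00109 with DESeq2. With Y-linked genes as a covariate the Hdc difference was 0.80 (adjusted p = 0.257) and the Cpa3 difference -0.35 (adjusted p = 0.405). These source comparisons share libraries with the genotype comparisons.

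Summed markers of other blood lineages also differed between groups, with a few genes holding most of each sum. Summed over 6 megakaryocyte markers, the level was 3049 to 4501 CPM in WT and 7035 to 7647 CPM in ETV6-RUNX1 fetal liver, and 1361 to 1813 CPM in WT and 464 to 2080 CPM in ETV6-RUNX1 marrow. Pf4 had the highest mean of the 6 in each group, and 1 of the 6, Gp9, fell in fetal liver (387 to 213 CPM, limma adjusted p = 0.00911). Gp9 also fell in marrow (118 to 20.5 CPM, limma adjusted p = 2.77e-05), as the only 1 of the 6 called there. Summed over 8 monocyte and macrophage markers the level was 42.7 to 49.7 CPM in WT and 115 to 132 CPM in ETV6-RUNX1 fetal liver. In marrow that sum was 36.9 to 62.2 CPM in WT and 89.8 to 111 CPM in ETV6-RUNX1. Cd68 held most of it, with means of 43.5 and 105 CPM in fetal liver and 42.0 and 89.7 CPM in marrow (WT then ETV6-RUNX1). Mean Csf1r, Adgre1 and Cd14 were also higher with ETV6-RUNX1 in both sources, and Cx3cr1 was lower in both. Ly6c2 and Mrc1 differed in direction between the sources. For 9 neutrophil markers the sum was 40.7 to 139 CPM in WT and 14.1 to 21.5 CPM in ETV6-RUNX1 fetal liver, and 4.83 to 140 CPM in WT and 2.504 to 3.51 CPM in ETV6-RUNX1 marrow. Mpo and Ltf held most of the neutrophil sum in fetal liver, and Ngp and S100a8 had the highest means in WT marrow. For 6 erythroid markers the sum was 80.6 to 101 CPM in WT and 173 to 227 CPM in ETV6-RUNX1 fetal liver. In marrow it was 37.6 to 61.4 CPM in WT and 54.5 to 64.9 CPM in ETV6-RUNX1. Hbb-bs (68.3 and 143 CPM) and Epor (24.9 and 53.8 CPM) held most of the fetal liver sum (WT then ETV6-RUNX1). Klf1 was lower there with ETV6-RUNX1 (0.654 and 0.175 CPM, with no call). WT marrow replicate 3 had the lowest neutrophil sum of its group, 4.83 CPM, and the highest Fcer1a. The part of these lineages and of the HSC marker level in the levels of Hdc, Mitf, Fcer1a and Mcpt8 was not tested.

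Further genes tied to mast cells and basophils were read from 6 lists of 66 genes, of which 50 passed the filter. The lists are not limited to genes of these cells, and Kit is also among the HSC markers. They were chosen with earlier results of these data known, so their counts beside the background, here and below, are a description only. In fetal liver 27 rose and 4 fell (background 24.8% higher and 18.3% lower), and in marrow 13 rose and 5 fell (14.4% and 4.93%). The counts of lower genes were 2 in fetal liver without WT replicate 1, WT replicate 3 or ETV6-RUNX1 replicate 2, and 3 in marrow without ETV6-RUNX1 replicate 1. Under median-of-ratios scaling the lists had 24 higher and 5 lower in fetal liver, beside 3313 and 3000 of all 14271 genes tested. In marrow they had 12 higher and 5 lower, beside 1432 and 1397 of all genes tested. The difference between the effects (fetal liver minus marrow) passed the test for 8 genes, each with a positive sign, where 5.56% of genes tested were called positive and 3.62% negative (794 and 517 genes, and 1014 and 347 under median-of-ratios scaling). That count was 5 without WT fetal liver replicate 2 or 3. The median log2 change of the lists in fetal liver ran from 0.29 for granule content to 1.74 for surface proteins, beside 0.08 over all genes tested. In marrow it ran from 0.15 for IgE receptor signalling to 0.95 for surface proteins, beside 0.13.

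Granule content had 14 genes, 5 of them past the filter, with 2 higher and 1 lower in fetal liver (background 24.8% higher and 18.3% lower) and 1 lower in marrow (4.93%). The tryptases, chymases and Prss34 were at or near 0: Mcpt2, Mcpt4 and Prss34 had no read in any library. Serglycin (Srgn), the proteoglycan that packs granule proteases, rose in fetal liver from 640 ± 67.7 to 1150 ± 95.5 CPM (limma adjusted p = 0.000373), as did the granule membrane tetraspanin Cd63, from 538 ± 42.0 to 744 ± 23.4 CPM (adjusted p = 0.0138, and 0.0764 and 0.0882 under the other scalings). Granzyme B (Gzmb), a protease of cytotoxic and some mast cells, fell in both sources. Gzmb was at 2.53, 2.06 and 1.55 CPM in WT fetal liver and 0, 0 and 1.32 CPM with ETV6-RUNX1, and 20.1, 16.4 and 31.8 CPM in WT marrow against 0.567, 5.47 and 3.50 CPM. The genotypes did not overlap in either source (limma adjusted p = 0.0453 in fetal liver and 0.00155 in marrow). The fetal liver call was lost on leaving out any of its libraries except ETV6-RUNX1 replicate 3 (adjusted p from 0.0653 to 0.148). WT marrow stood above all other groups, as it did for Fcer1a.

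All 12 genes of IgE receptor signalling passed the filter, and 6 rose and 1 fell in fetal liver (background 24.8% higher and 18.3% lower), and 1 rose and 1 fell in marrow (14.4% and 4.93%). The receptor's γ chain, Fcer1g, which other Fc receptors share, was at 270 and 254 CPM in fetal liver and 79.3 and 96.9 CPM in marrow (WT then ETV6-RUNX1), with no call in either source. Lyn, the kinase that phosphorylates the receptor, rose in fetal liver from 96.1 ± 12.3 to 221 ± 10.8 CPM (limma adjusted p = 5.41e-05), and its effect there exceeded that in marrow (adjusted p = 0.0204, and 0.0512 to 0.0597 without ETV6-RUNX1 fetal liver replicate 1, WT marrow replicate 2 or 3, or WT fetal liver replicate 2 or 3). Fyn rose in both sources, from 37.7 to 78.6 CPM in fetal liver and from 32.5 to 47.3 CPM in marrow, where the call was lost under both other scalings (adjusted p 0.0828 and 0.0802) and without ETV6-RUNX1 replicate 2 or WT replicate 1 or 2 (0.0768 to 0.111). The adaptor Lcp2 rose in fetal liver from 255 to 412 CPM.

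Lat, the membrane adaptor downstream of the receptor, fell in both sources. It was at 105, 131 and 146 CPM in WT fetal liver and at 77.1, 5.31 and 4.02 CPM with ETV6-RUNX1, and at 123, 115 and 144 CPM in WT marrow against 23.5, 36.4 and 27.9 CPM. ETV6-RUNX1 fetal liver replicate 1 stood well above the other two of its group, and still below every WT library. The limma log2 change was -3.23 ± 0.69 in fetal liver (adjusted p = 0.00198) and -2.10 ± 0.69 in marrow (adjusted p = 0.0477). The marrow call was lost on leaving out any marrow library or any WT fetal liver library (adjusted p from 0.0562 to 0.122).

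Among cytokine receptors and the IL-33 pathway, 5 of 10 tested genes rose in fetal liver (background 24.8%) and 4 in marrow (14.4%). The receptor chains for IL-3, a growth factor of basophils and mast cells, rose in both sources. Csf2rb2, the β chain that serves IL-3 alone in the mouse, was at 15.1, 11.8 and 8.14 CPM in WT and at 189, 165 and 195 CPM in ETV6-RUNX1 fetal liver, and at 12.1, 15.1 and 13.8 CPM in WT and 47.9, 57.8 and 41.9 CPM in ETV6-RUNX1 marrow. The genotypes stood apart in both sources, and the effect was larger in fetal liver (log2 changes 3.89 and 1.77, limma adjusted p of the difference 0.000361). The common β chain Csf2rb rose from 101 to 511 CPM in fetal liver and from 102 to 159 CPM in marrow (limma adjusted p = 0.0132, and 0.0539 without ETV6-RUNX1 marrow replicate 1), and also had the larger effect in fetal liver (adjusted p = 0.000338). Il3ra, the α chain, rose from 3.36 to 15.2 CPM and from 2.30 to 29.1 CPM (adjusted p of the difference 0.0551). Csf2ra, the α chain for GM-CSF, rose in marrow from 6.92 to 19.9 CPM. Csf2rb and Csf2rb2 are near-identical copies, so reads shared between them may be split uncertainly. Kit, the stem cell factor receptor, was at 173 and 221 CPM in fetal liver and 361 and 318 CPM in marrow (WT then ETV6-RUNX1), with no call.

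Of 11 tested transcription factors, 7 rose in fetal liver (background 24.8%), and 6 rose and 1 fell in marrow (14.4% and 4.93%). The 3 MiT relatives of Mitf rose in both sources. Tfec was at 38.1, 41.4 and 37.8 CPM in WT and 81.0, 88.5 and 98.1 CPM in ETV6-RUNX1 fetal liver, and at 54.7, 52.7 and 56.5 CPM in WT and 79.9, 80.0 and 79.6 CPM in ETV6-RUNX1 marrow. No library overlapped between genotypes. Its effect was larger in fetal liver (log2 changes 1.17 and 0.54, limma adjusted p of the difference 0.033), a call lost in 9 of the 12 fits that left out a library (0.0555 to 0.0856). Tfe3 rose from 10.8 to 28.7 CPM and from 13.3 to 31.7 CPM, and Tfeb from 2.97 to 7.04 CPM and from 3.50 to 9.78 CPM. Bhlhe40, a regulator in several myeloid cells, rose in marrow from 51.7 to 105 CPM. Gata2, which early mast cells and basophils need, gave no call (109 and 85.8 CPM in fetal liver, 129 and 146 CPM in marrow). Gata1, chosen for mention after its values were seen, rose in fetal liver from 91.7 to 237 CPM and fell in marrow from 36.3 to 16.5 CPM (limma adjusted p of the difference 0.0023). Its marrow fall had an adjusted p of 0.0133, and of 0.0507 without ETV6-RUNX1 marrow replicate 1.

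Lipid mediators and cytokines had 8 tested genes, with 3 higher and 2 lower in fetal liver (background 24.8% higher and 18.3% lower) and 1 higher and 2 lower in marrow (14.4% and 4.93%). Alox5, the lipoxygenase that starts leukotriene synthesis, was at 344, 161 and 220 CPM in WT and 113, 30.6 and 18.1 CPM in ETV6-RUNX1 fetal liver, and at 123, 152 and 220 CPM in WT and 14.7, 22.3 and 12.9 CPM in ETV6-RUNX1 marrow. It fell in both sources with no overlap (limma adjusted p = 0.000975 and 0.000826), and replicate 1 was again the highest of the ETV6-RUNX1 fetal liver libraries. Its partner Alox5ap rose in fetal liver from 328 to 512 CPM. Ptgs1, a cyclooxygenase, fell in marrow from 289 to 185 CPM. Tnf rose from 5.42 to 24.3 CPM in fetal liver and from 5.83 to 13.1 CPM in marrow, where the call was lost without ETV6-RUNX1 replicate 2 or 3 or WT replicate 2 (adjusted p from 0.064 to 0.0888). Il4, a basophil cytokine, was at 17.9 and 25.6 CPM in fetal liver and at 16.1 and 21.9 CPM in marrow (WT then ETV6-RUNX1), with no call, and Il13 was at or under 3 reads in all 12 libraries.

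All 4 tested surface genes rose in fetal liver (background 24.8%), and 1 in marrow (14.4%). Cd200r3, an activating receptor of mouse basophils and mast cells, was at 3.42, 2.89 and 3.32 CPM in WT and at 146, 111 and 151 CPM in ETV6-RUNX1 fetal liver. In marrow it was at 0.343, 0.156 and 0 CPM in WT and 3.35, 5.01 and 2.04 CPM in ETV6-RUNX1. ETV6-RUNX1 fetal liver stood far above all other groups, and the marrow genotypes did not overlap. The log2 change was 5.01 ± 0.24 in fetal liver (limma adjusted p = 4.25e-09) and 1.89 ± 0.24 in marrow (adjusted p = 0.00029), larger in fetal liver by 3.12 (adjusted p = 7.29e-05). Itga2 rose in fetal liver from 1.20 to 6.45 CPM, Itgb7 from 2.46 to 6.69 CPM (adjusted p = 0.0247, and 0.051 to 0.0757 without replicate 1 or 3 of either genotype) and Cd69, an activation marker of many leukocytes, from 21.5 to 84.6 CPM. The basophil marker list summed to 20.9 to 24.1 CPM in WT and 143 to 183 CPM in ETV6-RUNX1 fetal liver. In marrow it summed to 13.9 to 22.6 CPM in WT and 23.0 to 28.7 CPM in ETV6-RUNX1. Cd200r3 held most of the rise in fetal liver. Within that list Mcpt8 was at 0 in the ETV6-RUNX1 libraries, and Prss34 had no read in any library of either genotype.

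**Figure D4:**
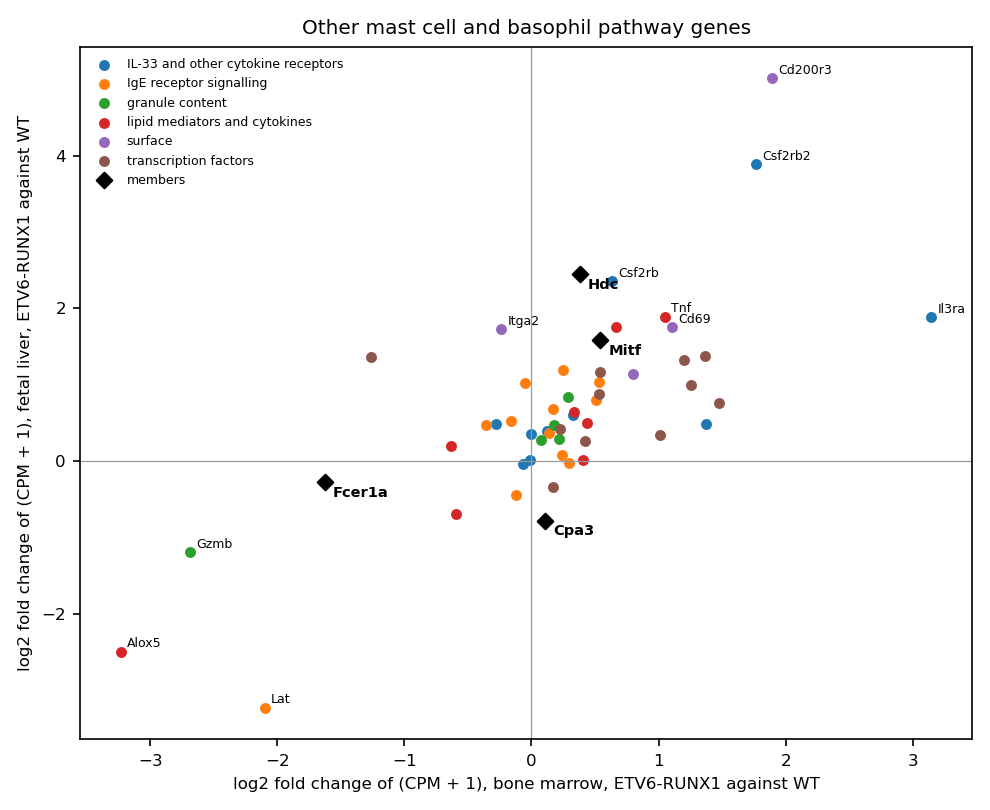
The limma log2 fold change of (CPM + 1), ETV6-RUNX1 against WT, in marrow (x axis) and fetal liver (y axis) for the 50 list genes past the filter (circles, coloured by list) and the 4 tested genes Hdc, Mitf, Cpa3 and Fcer1a (black diamonds). Cd200r3 and Csf2rb2 lie at the top right, and Lat, Alox5 and Gzmb at the lower left.

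**Figure D5:**
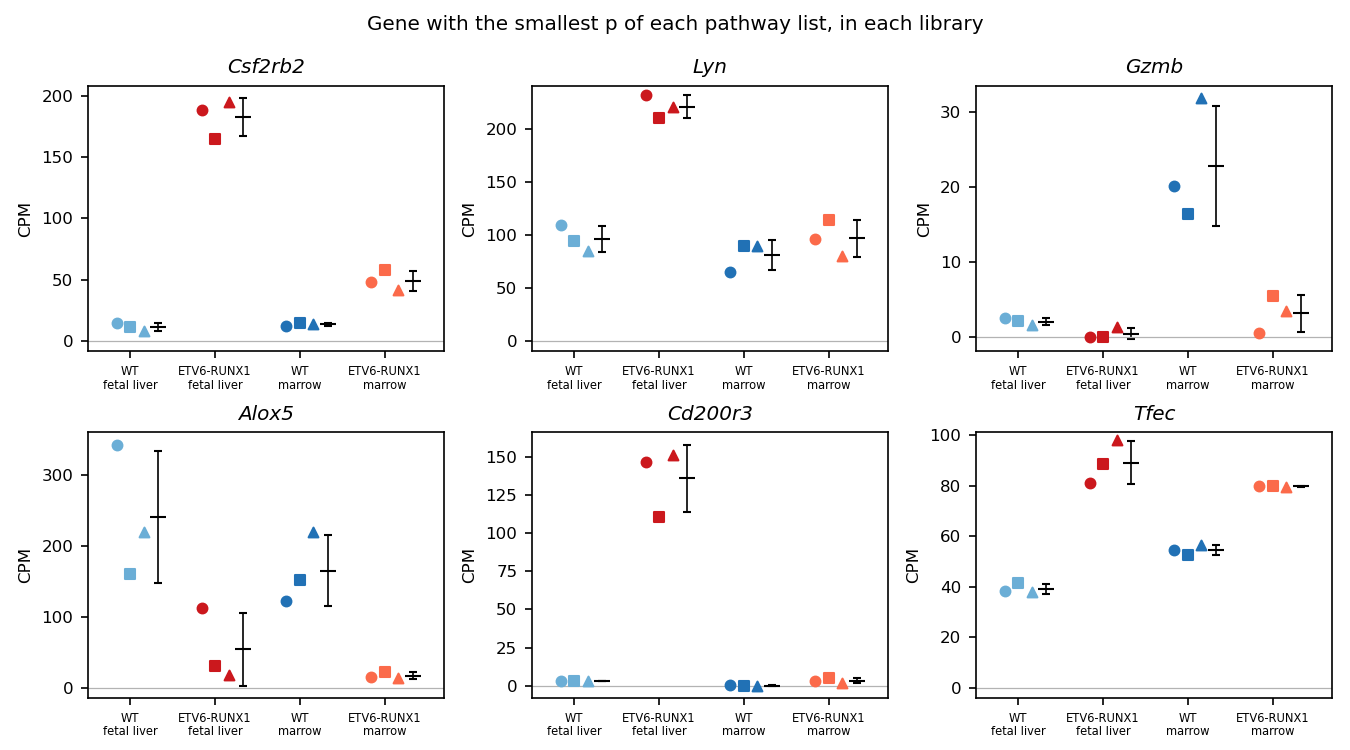
CPM (linear y axis, own range per gene) of the gene with the smallest p of each of the 6 lists in the 12 libraries, by group; circle, square and triangle are replicates 1, 2 and 3, and black bars are the mean ± SD of 3 libraries. Csf2rb2, Lyn and Cd200r3 are highest in ETV6-RUNX1 fetal liver, Gzmb is highest in WT marrow, and Alox5 is lower and Tfec higher with ETV6-RUNX1 in both sources.

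Genes whose level ran most like each tested gene across the 12 libraries were named from those with a mean of at least 5 CPM. The 12 points share their groups, so each r is a description. Hdc ran most like Zup1 (Pearson r = 0.953), Lpl (0.94), the lipoprotein lipase, and Cdk14 (0.939). Mean Lpl was 3.66 CPM in WT and 203 CPM in ETV6-RUNX1 fetal liver, and 11.4 and 17.7 CPM in marrow. Cpa3 ran most like Il1r1 (0.941), the IL-1 receptor, Ptprs (0.91) and Pus1 (0.893). Il1r1 was at 10.2 CPM in WT and 2.87 CPM in ETV6-RUNX1 fetal liver, and at 8.52 and 11.6 CPM in marrow. For Fcer1a the closest were Brip1 (0.873), Nedd1 (0.873) and Gzmb (0.872), and for Mitf they were Parp8 (0.962), Ogfrl1 (0.959) and Anxa7 (0.95).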

How the data were processed

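The table analysed holds, per the file headers, CPM (counts scaled to a library total of 1000000) for each Ensembl gene in 12 libraries. The authors' steps, per the submitters' processing notes, used STAR 2.5.1a, featureCounts 1.4.6-p5, Salmon 0.8.2, edgeR and limma with GRCm38; the strand setting and annotation are not given in the sources used here. Per the labels' protocols, libraries came from the SMARTer Stranded Total RNA-Seq Pico kit. The 40757 entries hold 276 repeats with identical values, used once. All values gave whole reads (100%, tolerance 0.01), 32.3 to 64.5 M (1000000) per library.

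A mean for each of the 4 groups was fitted to all 12 libraries with limma 3.58.1 on log2(CPM + 1) (eBayes with trend, 8 residual degrees of freedom). Alternatives (fold limits of genes at 0 reads without each library were added after seeing the data) were edgeR 4.0.16 and DESeq2 1.42.0 on recovered reads, other filters, scalings and a pseudocount of 0.1, Y-linked genes as covariate, a replicate block and leaving out each library. Tests were tested on simulated data. Positions are from GENCODE, GRCm38, and promoters from RefSeq. The genes and lists were chosen with earlier results of these data known. All 7 genes are named, and of each list at most 4 called genes with the smallest p, unless stated.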

Additional observations from a re-analysis of the deposited data

Results flagged for a closer look

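For 2 genes the effect of ETV6-RUNX1 in fetal liver differed from that in marrow by limma's test of the difference itself. Hdc had a difference of 2.07 on the log2(CPM + 1) scale, with a rise in all 3 ETV6-RUNX1 fetal liver libraries and overlapping groups in marrow. Fcer1a had a difference of 1.35, from a larger fall on that scale in marrow than in fetal liver. It entered the filtered test through WT marrow, where it is high, and without the filter its adjusted p with limma was 0.0925, and that of Hdc 0.0935. On recovered reads the sign of the Fcer1a difference turned, as given beside its values above.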

How the results depend on the processing

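Over the 20 values of the 4 tested genes in 5 comparisons, 426 values under other settings were computed: 376 kept direction and call, 24 lost a call, 10 gained one and 16 changed sign, and the cause was not tested. Every change of sign was in Cpa3 or Fcer1a. The values below from edgeR on all genes with reads are not among the 426. The marrow effect of Cpa3 was -0.00044 with DESeq2, -0.0251 with TMM, -0.0288 with median-of-ratios scaling, -0.00963 with edgeR, -0.0221 with edgeR on all genes with reads (added after seeing the data), -0.19 with Y-linked genes as covariate and -0.058 without ETV6-RUNX1 marrow replicate 2. Its WT difference between sources was 0.11 with DESeq2, 0.0683 with TMM, 0.0607 with median-of-ratios scaling, 0.12 with edgeR, 0.10 with edgeR on all genes, 1.18 with the Y-linked covariate, 0.0702 without WT marrow replicate 3 and 0.20 without WT fetal liver replicate 2 (leaving out each library in turn gave -0.16 to 0.20). The Fcer1a difference of effects was -1.84 with DESeq2, -2.49 with edgeR and -2.46 with edgeR on all genes, and its ETV6-RUNX1 difference between sources was 0.13 with the Y-linked covariate.

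With that covariate, which nearly coincides with the groups, the genes called were 847 in fetal liver, 1445 in marrow, 351 for the difference of effects, 178 between WT sources and 2467 between ETV6-RUNX1 sources, and 0 of the 7 genes were called between either pair of sources, while the 3 fetal liver calls and the marrow call of the 7 genes held. The marrow count was 1601 from its 6 libraries alone, and the count for the difference was 767 without filtering. Leaving out each library in turn gave 4666 to 6638 genes in fetal liver, 1520 to 2924 in marrow, 731 to 2332 for the difference and 868 to 2781 between WT sources. Of the 7 genes, 0 to 3 were then called for the difference. Without filtering 5 of the 7 were called in fetal liver (5500 of 29278 genes in all) and 0 for the difference (767 of 29278). For the difference the pseudocount of 0.1 called 1 (1185 of 14271 genes in all) and edgeR 1. A filter at a mean of 5 CPM removes Hdc and Fcer1a. It left 0 in marrow (2335 genes called in all), 0 for the difference (1082), 0 between WT sources (1230) and 1 between ETV6-RUNX1 sources (3045). Between ETV6-RUNX1 sources DESeq2 called 4. The counts of all genes called by edgeR and DESeq2 are not given here, so their counts of the 7 lack a background. Same-numbered libraries did not deviate together (18 pairs, r from -0.442 to 0.39, 7 over 0.1, and 1 of 12 libraries closest to its own number). With the replicate block 5838 genes were called in fetal liver, and no call of the 7 genes changed. Depth limits Mcpt8, Ms4a2 and Il1rl1, each at or under 1.04 CPM in all libraries.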
